A study of Homo sapiens with 2 samples.

Results

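The 40 genes described here carry out glycolysis or respond to low oxygen, and they were chosen by role as 4 glucose and lactate transporters, 17 glycolytic enzymes, 3 regulators of the flux, 4 HIF alpha subunits and hydroxylases, and 12 hypoxia-responsive targets. Every probe carrying one of these symbols in the array annotation was taken, which gave 53 of the 58199 probes and 40 of the 34757 gene symbols.

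Glycolysis turns glucose into pyruvate in a fixed chain of enzymes, and lactate dehydrogenase then converts pyruvate to lactate, which monocarboxylate transporters carry out of the cell. Low oxygen adds to this chain through the hypoxia-inducible factors (HIF): prolyl hydroxylases mark the HIF alpha subunits for destruction while oxygen is present, and when oxygen falls the subunits persist and switch on genes of glucose uptake, glycolysis, pH control, blood vessel growth and mitophagy. Melanoma cells in culture commonly run glycolysis at a high rate with oxygen present.

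A375 is an established line from a human malignant melanoma. 1 culture was transfected with siRNA against THOC2 (si-THOC2), a subunit of the THO complex that couples transcription to mRNA export, and 1 culture with a control siRNA (NC). The labels give 48 h for both cultures, and no hypoxia treatment or change of glucose is named. RNA of each culture was measured on 1 single-colour Agilent SurePrint G3 Human Gene Expression v3 array, both arrays on the same slide and in the same scan, so that each condition had 1 culture and 1 array. No test between the conditions, p-value or spread between cultures could therefore be obtained, and every difference below is a difference between these 2 arrays. For each sample the title and the description give one condition and the source field the other. The title and the description were followed. The methods list several THOC2 siRNAs without naming the one used on the arrays, so that an effect of a single siRNA sequence cannot be told apart from one of THOC2, and they give another culture medium and RNA extraction than the sample labels. In RNA from a whole culture, fewer cells of one kind and less RNA per cell cannot be told apart.

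The processed signal of each probe, in the arbitrary units of the scanner after background subtraction, was put on the log2 scale and reduced by the 75th percentile of its array. This percentile was 6.62 for NC and 6.31 for si-THOC2, a shift of -0.31 that the scaling removed. A difference is the scaled log2 value with si-THOC2 minus that with NC, and raw signals are given beside it. A probe counted as measured when the scanner software marked it well above background on both arrays (22207 probes and 15647 genes), and a gene's value is the mean over its measured probes. Between 39.4% and 42.3% of probes were well above background on an array, and 0 spots were saturated. Probes printed in at least 5 spots gave the technical SD of a difference, with a median of 0.05 at a log2 signal of 10 or more, 0.07 between 8 and 10, 0.11 between 6 and 8, 0.29 between 4 and 6, and 0.44 below 4 (from 145, 99, 36, 6 and 14 such probes). This error covers spots on the array and leaves out all variation between cultures.

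The targeted gene was measured by a pair of probes. The probe at chrX:122734486-122734545 (hg19) read 136 under NC and 40.9 under si-THOC2, a difference of -1.42. The probe at chrX:122747960-122748019 had 67.3 and 35.1, a difference of -0.63. Both were lower on the array labelled si-THOC2, and the gene's value of -1.03 became -0.51 when the background was corrected by normexp instead, a method that models signal and background together and adds an offset, which draws low signals together. Of 11 melanocyte and neural crest markers, 7 were well above background on both arrays. They included SOX10, a transcription factor of this lineage, at 6196 with NC and 5196 with si-THOC2 (a difference of 0.06 after scaling). The measured S100B probe was lower (-0.66, technical SD 0.11), and the measured MITF probes had -0.02 and -0.04. The pigment cell gene DCT was higher (0.75, technical SD 0.29). NGFR had 0.32, the probes of NES 0.34 and 0.31, and those of PAX3 0.10 and 0.33. Other pigment cell genes, PMEL, TYR and TYRP1, were not well above background on either array, and MLANA was so only with si-THOC2. The summed signal of this list was 9256 with NC and 8114 with si-THOC2, which differ by 0.12 (log2) after scaling. Most of both sums was SOX10, so the sums say little about the other markers. Of 12 markers of other cell types, 5 were well above background on both arrays, 1 on one array and 6 on neither, with a summed signal of 361 and 322 and a difference of 0.15 after scaling. The part of such cells in the differences below was not tested.

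38 of the 40 genes were measured, by 50 probes. The remaining 3 probes were not well above background on either array: the only probe of EGLN3 (signal 2.97 with NC and 3.23 with si-THOC2), the only probe of CA12 (2.94 and 5.34) and a second probe of HK2 (2.95 and 3.23). No gene of the set differed by 2-fold or more. In all genes, 0.352% were lower and 0.837% higher by that fold on the si-THOC2 array. At 1.5-fold, 1 of the 38 genes was lower (CA9, 2.63%) and 3 were higher (SLC16A3, NDRG1 and PFKL, 7.89%), against 2.61% and 3.53% of all genes. Counted by probe, 2 of 50 were lower and 3 higher at 1.5-fold, beside 2.94% and 3.84% of all probes, and 0 of 50 at 2-fold, beside 0.365% and 0.829%. The probes of this set were mostly bright, 39 of the 50 having a log2 signal over 8 under both conditions. Of these 39, 1 was lower and 2 were higher by 1.5-fold and 0 by 2-fold. The same brightness was reached by 9586 probes of the whole array, with shares of 0.73% (lower) and 1.01% (higher) at 1.5-fold and of 0.104% and 0.136% at 2-fold.

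The median difference of the 38 genes was 0.08 (SD over genes 0.28), from -0.85 for CA9 to 0.76 for SLC16A3, and this median was -0.04 after normexp correction. Of the 38 genes, 24 lay above 0 and 14 below, or 63.2% above, beside 56.8% of all measured genes and 64.6% of the bright genes described next. The median of all measured genes was 0.04 (SD 0.31), and that of the 6850 genes of a log2 signal above 8 under both conditions was 0.07 (SD 0.21). By role, the medians were 0.11 for transporters (0.022 after normexp), 0.10 for enzymes (-0.05 after normexp), 0.09 for flux regulators (0.021 after lowess centring along the signal and 0.032 with the brightest probe of each gene), 0.04 for HIF subunits and hydroxylases (-0.06 after normexp) and 0.04 for targets (-0.03 when the arrays were given equal distributions by quantile normalization, by the authors or here, or were centred by lowess, and -0.09 after normexp). Against the technical error, 15 genes were higher and 4 lower by more than 2 technical SDs, and 19 lay within. That made 39.5% higher and 10.5% lower, beside 25.9% and 16.05% of all measured genes and 39.3% and 16.2% of the bright genes.

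**Figure D1:**
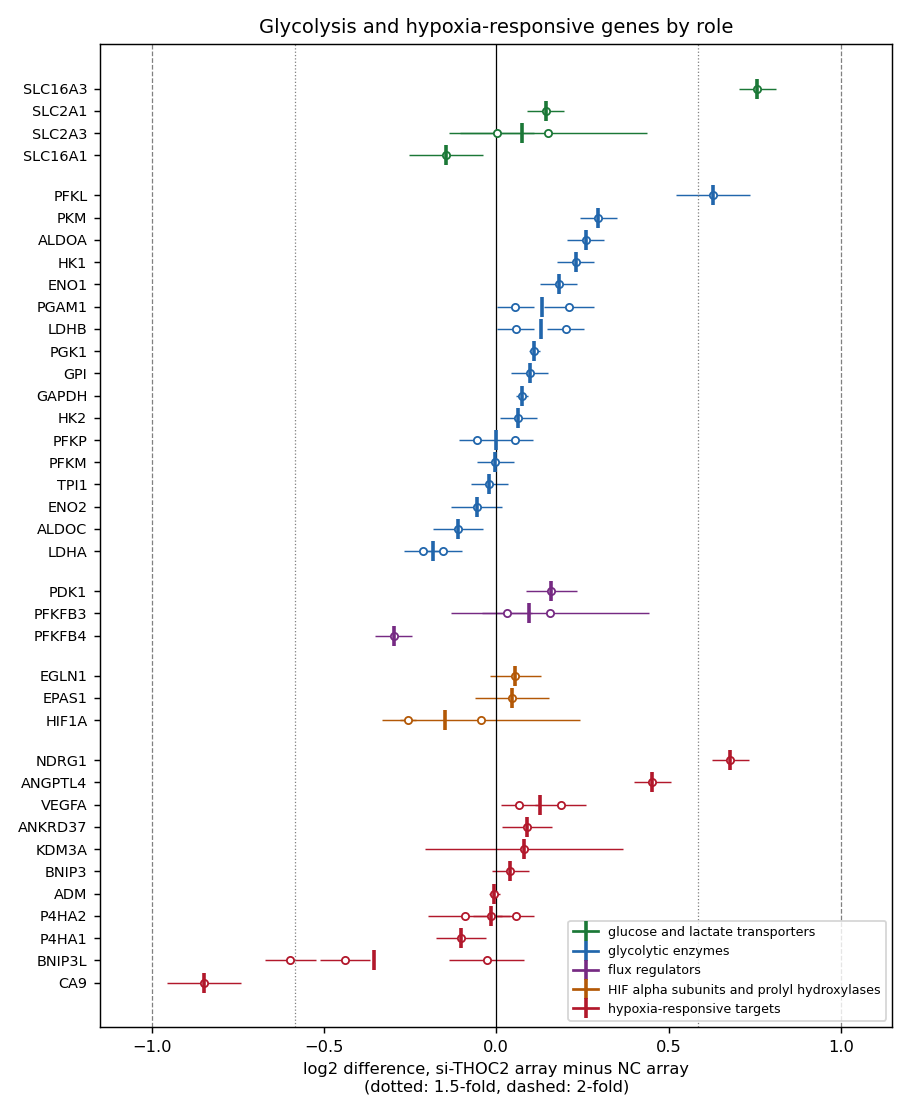
Difference in scaled log2 signal (si-THOC2 array minus NC array, x axis) of the 38 measured genes, grouped by role. Circles are probes with 1 technical SD to each side and the vertical ticks are gene values. All genes lie inside the 2-fold lines, and CA9, PFKL, NDRG1 and SLC16A3 lie outside the 1.5-fold lines.

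**Figure D2:**
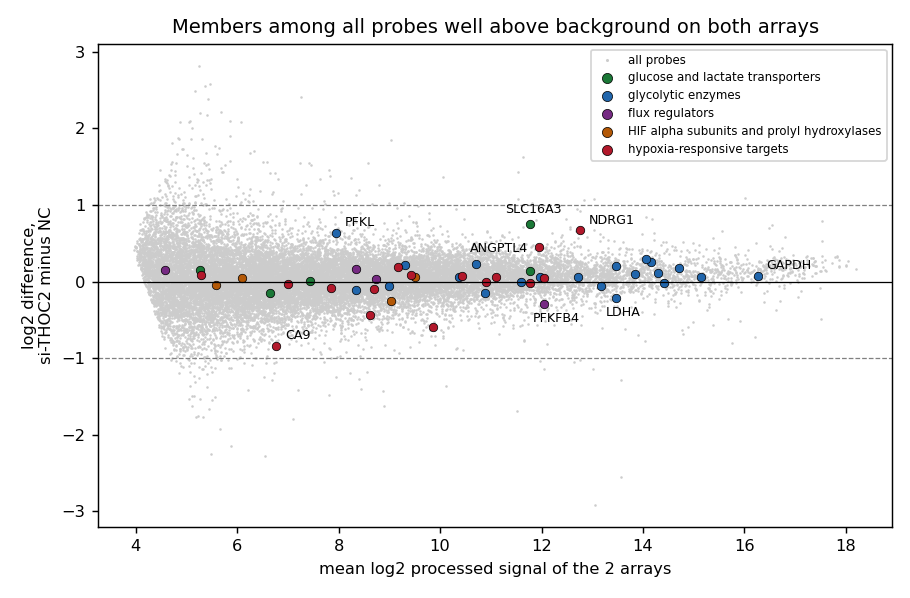
Difference (y axis, log2) against the mean log2 processed signal of both arrays (x axis) for all 22207 measured probes in grey and the 50 probes of the set in the colours of their roles. Differences of all probes spread more widely at low signal, where CA9 and PFKL lie, than at the high signals of SLC16A3 and NDRG1.

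HIF binds a short core, ACGTG or GCGTG, near many of the genes it controls. Sequences of the start site region, read from RefSeq (GRCh38.p14), were found for 35 of the 40 genes. Windows of 300 bases, from 250 before to 50 after a start site, numbered 63 for these genes and 35116 in all. ACGTG, on either strand, stood in 38.1% of the windows of the set and in 21.4% of all windows. GCGTG stood in 41.3% and 36.5%. The windows of the set were also richer in G and C, with a median of 68.0% against 58.7%, and the part of this in the motif shares was not tested. Among genes with a single window, 47.8% of 23 genes of the set and 21.3% of 22114 genes held ACGTG. In the same genes, GCGTG stood in 52.2% and 35.4%. The 250 bases before the start site are shown for LDHA, a textbook HIF target, and for the genes with the most extreme differences among those with a window in the table. Capitals mark ACGTG or GCGTG and their reverse complements, CACGT and CACGC.
LDHA, chr11:18394313-18394562, plus strand: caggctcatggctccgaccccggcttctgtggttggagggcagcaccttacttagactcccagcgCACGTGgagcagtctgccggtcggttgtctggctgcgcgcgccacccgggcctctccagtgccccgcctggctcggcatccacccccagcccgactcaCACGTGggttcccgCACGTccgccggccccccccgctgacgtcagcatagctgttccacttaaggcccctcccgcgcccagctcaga
SLC16A3, chr17:82228792-82229041, plus strand: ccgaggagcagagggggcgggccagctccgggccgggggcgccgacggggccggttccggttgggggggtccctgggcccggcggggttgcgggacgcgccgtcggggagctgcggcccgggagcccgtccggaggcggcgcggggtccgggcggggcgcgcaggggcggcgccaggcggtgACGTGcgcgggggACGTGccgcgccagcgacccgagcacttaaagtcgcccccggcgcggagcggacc
PFKL, chr21:44299803-44300052, plus strand: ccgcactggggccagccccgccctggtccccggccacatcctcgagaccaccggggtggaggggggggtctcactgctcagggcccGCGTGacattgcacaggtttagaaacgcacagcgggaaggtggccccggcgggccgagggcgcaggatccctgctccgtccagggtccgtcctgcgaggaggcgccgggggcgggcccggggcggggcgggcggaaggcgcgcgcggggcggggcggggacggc
PFKFB4, chr3:48556804-48557053, minus strand: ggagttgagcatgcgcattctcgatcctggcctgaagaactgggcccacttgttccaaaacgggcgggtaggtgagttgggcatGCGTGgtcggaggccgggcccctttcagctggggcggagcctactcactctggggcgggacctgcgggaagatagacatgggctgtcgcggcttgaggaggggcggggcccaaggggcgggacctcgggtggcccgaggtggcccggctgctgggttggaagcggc
CA9, chr9:35673678-35673927, plus strand: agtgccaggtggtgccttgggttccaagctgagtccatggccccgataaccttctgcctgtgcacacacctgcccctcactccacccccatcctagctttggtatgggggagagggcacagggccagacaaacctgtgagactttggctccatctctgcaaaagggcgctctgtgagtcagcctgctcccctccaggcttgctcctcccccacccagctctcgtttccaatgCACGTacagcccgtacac
Letters of both kinds stood before genes that were higher and genes that were lower on the si-THOC2 array. CA9 held CACGT starting 18 bases before its start site (position -18), and it had the lowest difference of the set. The SLC16A3 window shown, one of 5 for this gene, held ACGTG at -68 and -55, and SLC16A3 had the highest. The LDHA window shown, one of 2 for this gene, held CACGTG, which reads as the motif on both strands, at -185 and -87, and a further CACGT at -73, while the other window (chr11:18396101-18396350) held 0 ACGTG and 1 CACGC in the 250 bases. A match of 5 letters is a description of the window and is no measured binding site.

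Among the transporters, the lactate exporter SLC16A3 (MCT4) stood apart. Its probe (chr17:80197288-80197347) read 2995 under NC and 4086 under si-THOC2, and the difference of 0.76 was 1.69-fold with a technical SD of 0.05. It was the one gene of the set that stayed beyond 1.5-fold under all 5 other scalings and background corrections, between 0.62 and 0.76. These 5 are not separate checks. Scaling by the median shifts all genes by the same small amount, and the authors' values nearly repeat quantile normalization. SLC16A1 (MCT1), a related carrier for lactate and pyruvate, had 118 and 86.0 and a difference of -0.15 (technical SD 0.11). The differences of these transporters were 0.90 apart (technical SD 0.12), a quantity that a common scaling factor leaves unchanged, and 0.82 apart after lowess centring. The glucose transporter SLC2A1 (GLUT1) had 3709 and 3306 and a difference of 0.14, which ranged down to 0.0073 over the other scalings. SLC2A3 (GLUT3) was read by one probe with 193 and 156 (0.0025) and another with 41.0 and 36.7 (0.15, technical SD 0.29). The gene values of SLC2A1 and SLC2A3 lay between the quartiles of all measured genes, -0.12 and 0.20. That of SLC2A1 was beyond 2 technical SDs (0.05 each), and glucose transporters outside the set were read only as part of a list.

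At the entry of glycolysis, hexokinase traps glucose in the cell as its phosphate. HK1 read 1726 under NC and 1634 under si-THOC2, a difference of 0.23. HK2, the hexokinase that HIF induces in many cells, had 1448 and 1222 on its measured probe, with 0.06. GPI, which converts glucose phosphate to fructose phosphate, had 15912 and 13727, with 0.10. The differences of HK2 and GPI turned below 0 under at least 1 of the 5 other scalings, to -0.06 for both, while HK1 stayed above 0.

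Phosphofructokinase commits the sugar to glycolysis, and its subunits differed. The liver-type subunit PFKL read 220 under NC and 274 under si-THOC2, a difference of 0.63 that was 1.55-fold with a technical SD of 0.11. The muscle-type subunit PFKM had 3450 and 2779, a difference of -0.0026. The platelet-type subunit PFKP had 10454 and 8118 on one probe and 4407 and 3690 on another, with -0.06 and 0.05. PFKL thus lay 0.63 above each of the other subunits (technical SD 0.12 against PFKM and 0.11 against PFKP), and 0.69 above both after lowess centring. The PFKL difference was 0.46 after normexp correction, which is under 1.5-fold. The PFKL probe, shown here because the value rests on it alone, spanned 260 bases of the genome (chr21:45744490-45744749, hg19) with 60 bases of sequence and so crosses an intron, and it holds a reading frame without a stop codon.
PFKL probe: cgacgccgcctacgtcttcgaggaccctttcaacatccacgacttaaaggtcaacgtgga

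Aldolase splits the phosphorylated sugar. ALDOA read 18698 under NC and 18068 under si-THOC2, a difference of 0.26, and ALDOC had 376 and 281, with -0.11. These differences were 0.37 apart (technical SD 0.09) and 0.30 apart after lowess centring. TPI1, which interconverts the resulting triose phosphates, had 24620 and 19584, with -0.02.

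The later steps of the chain yield ATP and pyruvate. GAPDH, often used as a reference gene, was printed in several spots. After outlier spots were left out, 9 spots with NC ran from 82777 to 87717 with a median of 84649, and 8 spots with si-THOC2 ran from 70460 to 75139 with a median of 72489. On the scaled log2 scale these ranges overlapped at their edges, from 9.72 to 9.80 and from 9.80 to 9.89, and the difference of 0.07 (spot SE 0.01) changed sign with the scaling, down to -0.06 after lowess centring. PGK1, the first enzyme of glycolysis to make ATP, had 10 spots per array with medians of 21707 and 19032. Its scaled ranges were 7.75 to 7.84 with NC and 7.83 to 7.92 with si-THOC2, with an overlap of the edges, and its difference of 0.11 also changed sign, to -0.01 at the lowest. PGAM1, a phosphoglycerate mutase, had differences of 0.06 (7404 and 6209) and 0.21 (659 and 615) on its probes.

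The enolases and pyruvate kinase followed. ENO1 read 28021 under NC and 25642 under si-THOC2, a difference of 0.18, and the neuronal-type ENO2 had 581 and 450, with -0.06. The pair was 0.24 apart (technical SD 0.09) and 0.17 apart after lowess centring, which is within 2 technical SDs. PKM, the pyruvate kinase of most tissues and tumours, had 17140 and 16986, with 0.30, and stayed between 0.20 and 0.30 over the other scalings. ENO1, PKM, ALDOA and HK1 thus kept a positive difference throughout, and the PKM difference was 1.23-fold.

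Lactate dehydrogenase stood on both sides of 0. The LDHA probe at chr11:18428789-18428848 read 13610 under NC and 9471 under si-THOC2, a difference of -0.21. A second probe named LDHA in the annotation, placed at chr9:14921817-14921876 and so away from the gene on chromosome 11, had 2232 and 1619, with -0.15. LDHB, the subunit that favours the reverse reaction, had 11751 and 10902 (0.20) on one probe and 39535 and 33185 (0.06) on another. The LDHA gene value averages both probes, including the one placed on chromosome 9. LDHB lay 0.31 above this LDHA value (technical SD 0.05), and 0.29 above it after lowess centring. The LDHA value of -0.18 ranged from -0.30 to -0.18 over the other scalings, while that of LDHB turned to -0.0074 at the lowest, so the gap between them was kept where the sign of LDHB was not.

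In all, 11 of the 17 enzymes lay above 0 and 6 below. That made 64.7% above, close to the 64.6% of bright genes, beside 56.8% of all measured genes. Of the 11, 5 (HK2, GPI, GAPDH, PGK1 and LDHB) changed sign under at least 1 other scaling or background correction. PFKL alone of the enzymes passed 1.5-fold.

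The 3 flux regulators set the pace of the chain or its exit. PFKFB3 and PFKFB4 make and remove fructose 2,6-bisphosphate, the activator of phosphofructokinase. PFKFB4 read 5200 under NC and 3412 under si-THOC2, a difference of -0.30 (technical SD 0.05), and lay between -0.38 and -0.30 over the other scalings. PFKFB3 had 470 and 387 (0.03) on one probe and 25.3 and 22.8 (0.16, technical SD 0.29) on another, and lay 0.39 above PFKFB4 (technical SD 0.16). PDK1, which holds pyruvate back from the mitochondrion by inhibiting pyruvate dehydrogenase, had 341 and 308, with 0.16.

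HIF1A encodes the main oxygen-regulated subunit, whose amount is set largely at the protein level. One probe (chr14:62214845-62214904) was printed in 10 spots per array. The spots ran from 604 to 671 with NC (median 645) and from 403 to 461 with si-THOC2 (median 430). On the scaled log2 scale they ran from 2.62 to 2.77 and from 2.35 to 2.54, without overlap, and the difference was -0.25 (spot SE 0.02), or 1.19-fold. The other HIF1A probe (chr14:62211472-62211531) had 54.3 and 42.5, with -0.04 and a technical SD of 0.29. The mean of both probes, -0.15, lay within 2 technical SDs (0.14 each). The spots repeat the same RNA on the array and are no replicate cultures. EPAS1 (HIF-2 alpha) had 74.7 and 62.2, with 0.04. The prolyl hydroxylase EGLN1, the main oxygen sensor of the pathway, had 793 and 665, with 0.06, which turned to -0.06 at the lowest over the other scalings.

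**Figure D3:**
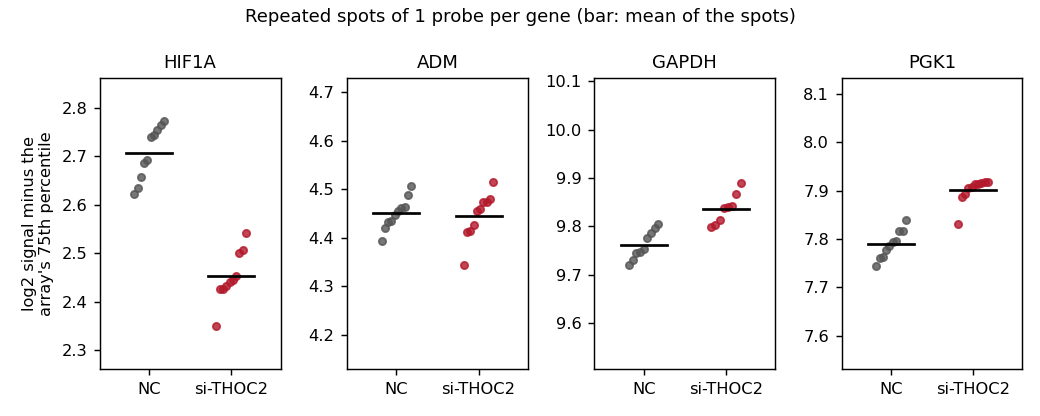
Scaled log2 signal (y axis) of each spot of the 4 genes printed in several spots, by array, drawn from low to high within an array, with a bar at the mean. The y axes span 0.6 log2 units each. Only the HIF1A spots do not overlap between the arrays.

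The hypoxia-responsive targets had an SD of 0.39 over the 11 measured genes. It was 0.19 over the 17 enzymes and 0.39 over the 4 transporters. Over all measured genes it was 0.31, over the bright genes 0.21, and over 46 other hypoxia-responsive genes outside the set 0.31. CA9, a carbonic anhydrase at the cell surface that buffers pH and is among the most used markers of HIF activity, read 163 under NC and 73.2 under si-THOC2. Its difference of -0.85 was 1.80-fold, the lowest of the set, with a technical SD of 0.11. It lay at -0.56 after normexp correction, under 1.5-fold, and between -0.85 and -0.84 under the other scalings. The CA9 probe, shown because the value rests on it alone, covers 1388 bases of the genome (chr9:35677817-35679204, hg19) with 60 bases of sequence and so crosses at least 1 intron.
CA9 probe: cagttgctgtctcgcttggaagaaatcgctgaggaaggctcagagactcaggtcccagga
NDRG1, a gene of stress response and differentiation that hypoxia induces, went the other way. It had 6074 with NC and 7844 with si-THOC2, a difference of 0.68 with a technical SD of 0.05 (0.56 after normexp correction, under 1.5-fold). When the array was divided into 128 blocks of spots, 3.87% of the 155 measured probes in the NDRG1 block were higher by 2-fold. Among all measured probes this share was 0.829%, and the part of the position on the array was not tested. ANGPTL4, a secreted inhibitor of lipoprotein lipase, had 3759 and 4150, with 0.45. SLC16A3, NDRG1, ANGPTL4 and PFKL were the only measured members whose raw signal itself was higher on the si-THOC2 array, before any scaling.

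The BNIP3 family, receptors that direct mitochondria to autophagy, was split. BNIP3 read 4621 under NC and 3835 under si-THOC2, a difference of 0.04, which turned to -0.09 at the lowest over the other scalings. BNIP3L was read by 3 probes. The probe at chr8:26254988-26255047 had 1276 and 680, with -0.60, which was 1.51-fold. The probe at chr8:26270286-26270345 had 510 and 304, with -0.44, and the probe at chr8:26252758-26252817 had 143 and 114, with -0.03. All were below 0, but they spread from -0.60 to -0.03, more than the technical SD of 0.11 or less of each, and the gene value of -0.36 averages probes that differ.

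The other targets had gene values within 0.13 of 0. VEGFA, the angiogenic growth factor, read 1498 under NC and 1266 under si-THOC2 on one probe (0.07) and 605 and 555 on another (0.19). ADM, the vasodilator adrenomedullin, had 10 spots per array, from 2063 to 2230 with NC and from 1607 to 1809 with si-THOC2, and overlapping scaled values with a difference of -0.0051 (spot SE 0.02). ANKRD37, a small ankyrin protein, had 745 and 639, with 0.09, and turned to -0.04 at the lowest over the other scalings. KDM3A, a histone H3 lysine demethylase, had 42.0 and 35.8, with 0.08 and a technical SD of 0.29. For the collagen prolyl hydroxylases, P4HA1 had 479 and 360, with -0.10, and the 3 probes of P4HA2 ran from -0.09 to 0.06. The P4HA1 probe lay in the block of spots with the highest median difference (0.17). In that block 8.52% of the 176 measured probes were higher by 2-fold, beside 0.829% of all measured probes. The part of this position in the P4HA1 difference was not tested. VEGFA and ADM are both widely used as readouts of HIF activity. The VEGFA gene value of 0.13 (technical SD 0.045) was among the 15 higher by more than 2 technical SDs, and it was 0.020 at the lowest over the other scalings. ADM lay within 2 technical SDs.

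**Figure D4:**
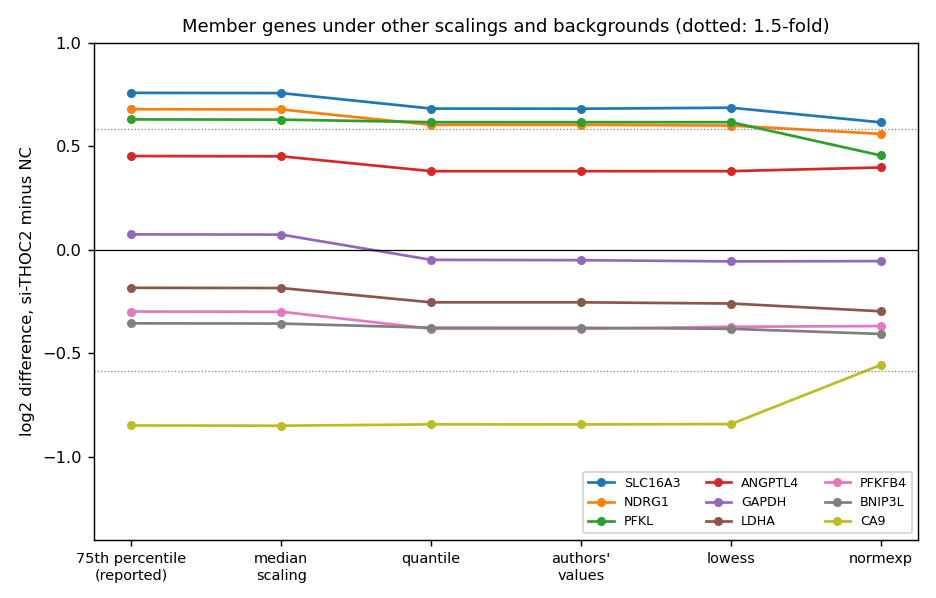
Difference of 9 genes (y axis, log2, si-THOC2 minus NC) under the reported scaling and the 5 other scalings or background corrections (x axis). SLC16A3 stays above the 1.5-fold line throughout, CA9, NDRG1 and PFKL cross inside it after normexp correction, and GAPDH changes sign.

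Further genes of the same pathways, which are not members, were read as lists. Of 36 other glycolysis genes, 25 were measured, with a median difference of -0.05 (-0.12 after normexp correction), 17 below 0 and 8 above, and 0 passed 1.5-fold in either direction. Of 16 other HIF pathway regulators, all 16 were measured, with a median of 0.12 (0.056 to 0.074 under quantile normalization, the authors' values, lowess and normexp) and 0 past 1.5-fold. Of 50 other hypoxia-responsive genes, 46 were measured, with a median of 0.04 (0.0018, 0.0013 and 0.0017 under quantile normalization, the authors' values and lowess, and -0.0036 after normexp), and 2 were lower and 3 higher by 1.5-fold, beside 2.61% and 3.53% of all genes. The lower ones were BHLHE41, a transcriptional repressor of the circadian clock, which read 117 under NC and 55.3 under si-THOC2 (-0.77), and STC2, a secreted glycoprotein, with 243 and 125 (-0.65). The higher ones were CXCR4, a chemokine receptor, with 33.8 and 45.1 (0.73), PPFIA4, a liprin, with 16.8 and 21.7 (0.68, technical SD 0.29), and PPP1R3B, a glycogen-targeting subunit of a phosphatase, with 93.8 and 114 (0.60). Of the probes measured on one array only, that of PGAM2, the muscle phosphoglycerate mutase, was not well above background with NC (11.1). It had 56.1 with si-THOC2, which made it at least 4.75-fold higher on that array, and it was picked out after its values were seen. In its block of spots 4.30% of the measured probes were higher by 2-fold, beside 0.829% of all measured probes. The part of this position on the array was not tested. Over all measured genes the median was 0.04 (0.0054 under quantile normalization and -0.0033 after normexp). Hypoxia-responsive genes with opposite differences stood side by side inside and outside the set.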

How the data were processed

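RNA of 2 A375 cultures was measured on 1 single-colour Agilent array each. The authors deposited, for every spot, the fluorescence intensity from Agilent Feature Extraction 10.7.1.1, including its processed signal, which is background-subtracted. A further table the authors deposited holds log2 values after normalization, and its sorted columns are equal to within 0.00079, as quantile normalization leaves them. These values served as an alternative, and their table gave symbols and positions (hg19). A deposited comparison table (log2 fold change, fold and signed score) was not used. The methods name Student's test, which 1 array per condition does not allow.

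Here, control spots were dropped together with outlier-flagged ones (147 for NC and 168 for si-THOC2), the log2 signals of a probe's spots were averaged, and each array's 75th percentile was subtracted. Genes were called at 2-fold, with 1.5-fold as an alternative. The members and lists were chosen with earlier results of these data known. Named were THOC2, all 40 members, and genes of the other lists past 1.5-fold, at most 10. Of 5 symbols not on the array, 4 were found under an older name. Probe sequences were meant for probes in coding sequence among the 3 highest and 3 lowest genes. No genome or protein table was used, so coding sequence was judged from an intron within the probe and an open frame. A run of 20 bases was shared with another probe by 1 of the 53 member probes, that of BNIP3, and the other probe has no symbol. In 128 blocks of spots the median difference lay between -0.05 and 0.17. Exons and UTRs were not analysed here. The precision is limited by the number of arrays. Tools were Python 3.11.15, numpy 2.4.6, pandas 2.3.3, statsmodels 0.14.6, matplotlib 3.10.9, and limma 3.58.1 under R 4.3.3 for normexp (offset 50).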

Additional observations from a re-analysis of the deposited data

How the results depend on the processing

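No paired analysis was possible because each condition has 1 array, and no replicate could be left out. Of 11 alternatives, 5 changed the scaling or background. Under these, 16 members stayed above 0, 14 stayed below 0 and 8 changed sign. All 8 lay above 0 under the reported scaling. The median of the members was lower under each of the 5, so members just below 0 had little room to change sign. PFKP (-0.00087), PFKM (-0.0026) and ADM (-0.0051) counted among the 14 though they lay within 2 technical SDs of 0. The share of all genes that changed sign was not computed. No member passed 2-fold under any alternative that kept a detection filter. With a fold of 1.5 the calls were 2 probes lower and 3 higher, and 1 gene lower and 3 higher. With no detection filter, 1 probe and 1 gene were higher by 2-fold (CA12, not well above background on either array), and the median of all probes moved to 0.31. The median of the members was 0.021 under quantile normalization and the authors' values, 0.0098 under lowess centring and -0.044 after normexp. That of the enzymes was 0.015 under quantile normalization and the authors' values, 0.0051 under lowess and -0.055 after normexp. The transporters moved to 0.022 and the HIF subunits and hydroxylases to -0.064 after normexp. The flux regulators moved to 0.021 under lowess and 0.032 with the brightest probe of each gene. The targets moved to -0.028 under quantile normalization, -0.033 under lowess, -0.029 with the authors' values and -0.090 after normexp. The other glycolysis genes were at -0.12 after normexp. The other HIF regulators were at 0.068 under quantile normalization and the authors' values, 0.056 after normexp and 0.18 with no filter. The causes of these shifts were not tested.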
